A study of Homo sapiens with 2 samples.

Results

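The genes described here are 8 transcription factors of the epithelial-mesenchymal transition (EMT): TWIST1, TWIST2, SNAI1, SNAI2, ZEB1, ZEB2, PRRX1 and FOXC2. Their probes were found by gene symbol among 12445 genes named on the array platform, and the set was proposed with earlier results of these data known. Of the 8, 7 had a probe, each a single one, and 6 had a value on at least 1 array. The samples were human mesothelioma lines on 2 arrays of 2 colours each. The first array set ACC-MESO1 cells depleted of CD26, the cell surface peptidase encoded by DPP4, against control ACC-MESO1 cells. The second set MSTO-211H cells that had received a pLNCX2 vector carrying CD26 against control MSTO-211H cells. The labels call the depleting agent shRNA in one field and siRNA in another, do not state what the controls received, and do not state whether clones or pools were used.

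EMT transcription factors are DNA-binding proteins that lower the expression of epithelial junction genes and favour a mesenchymal, motile cell state. The zinc finger proteins SNAI1 and SNAI2 and the zinc finger homeobox proteins ZEB1 and ZEB2 bind E-box sequences in promoters such as that of E-cadherin and act mainly as repressors. TWIST1 and TWIST2 are basic helix-loop-helix proteins that pair with E proteins, PRRX1 is a homeobox protein, and FOXC2 is a forkhead protein. Mesothelial cells carry keratins and mesenchymal proteins together, and mesothelioma ranges from epithelioid to sarcomatoid growth, so these factors are often studied in it.

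Sequences are shown because ZEB1 and ZEB2, close relatives with shared targets and shared regulators, had values of opposite sign in the transfected cells. The ZEB1 log2 ratio was small there (0.30), and 43.7% of genes were at least as far from 0. The first set gives the 250 bases before the first annotated start of each gene, from RefSeq on GRCh38.p14, 5′ to 3′ on the gene's strand. Capitals mark the letters CACCTG or CAGGTG, the E-box form bound by ZEB and SNAI zinc fingers, and CATCTG or CAGATG, a form bound by TWIST dimers, searched on both strands, since each pair holds a motif and its reverse complement. The promoter table held a window for 4 of the 8 factors. The epithelial gene DSP, which codes for the desmosomal protein desmoplakin, is added as a gene of the kind these factors act on. It is an example with these letters in its window, and windows of other epithelial genes, such as CLDN1, held none. The E-cadherin gene, CDH1, had no window.
ZEB2, chr2:144520120-144520369, minus strand: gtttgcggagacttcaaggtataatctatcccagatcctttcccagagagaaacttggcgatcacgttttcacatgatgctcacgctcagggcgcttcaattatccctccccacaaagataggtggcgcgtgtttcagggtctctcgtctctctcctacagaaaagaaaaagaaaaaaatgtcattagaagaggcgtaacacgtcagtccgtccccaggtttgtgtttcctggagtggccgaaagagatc
ZEB1, chr10:31318167-31318416, plus strand: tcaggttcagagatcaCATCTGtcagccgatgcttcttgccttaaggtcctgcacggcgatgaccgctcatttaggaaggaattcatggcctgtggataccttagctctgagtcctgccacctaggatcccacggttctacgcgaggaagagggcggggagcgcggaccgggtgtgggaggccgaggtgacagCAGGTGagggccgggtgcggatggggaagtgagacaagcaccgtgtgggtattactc
DSP, chr6:7541421-7541670, plus strand: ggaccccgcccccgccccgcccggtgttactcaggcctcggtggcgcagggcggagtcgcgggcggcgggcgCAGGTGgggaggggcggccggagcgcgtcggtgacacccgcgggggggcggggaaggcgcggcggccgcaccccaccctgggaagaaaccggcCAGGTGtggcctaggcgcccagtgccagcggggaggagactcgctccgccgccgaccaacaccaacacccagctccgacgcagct

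The ZEB2 window held none of these letters, the ZEB1 window held 1 match of each form, and the DSP window held 2 matches to CAGGTG. Among genes repressed in EMT, 14 of the 25 listed had a window, and 8 of those genes (57.1%) held CACCTG or CAGGTG in at least 1 window, beside 20.6% of all 27305 genes. These 8 were CLDN7, CRB3, DSP, JUP, MUC1, OCLN, PATJ and TJP1. By window, CACCTG or CAGGTG was found in 10 of the 21 windows of that list (47.6%), beside 17.5% of all 35116 windows of this length, and some windows of a gene overlap. CATCTG or CAGATG was found in 0 of the 21, beside 12.2% of all windows. A match describes letters in a window and not a bound site.

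The second set gives the mature miR-200 family, whose members are known to target ZEB1 and ZEB2 transcripts and are themselves repressed by ZEB proteins. The sequences are RefSeq's on GRCh38.p14, with the seed (bases 2 to 8) in capitals. They are background to the ZEB pair, and their levels were not analysed here. The first 3 share the seed AAUACUG and the other two share AACACUG.
hsa-miR-200b-3p: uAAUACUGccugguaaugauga
hsa-miR-200c-3p: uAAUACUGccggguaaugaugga
hsa-miR-429: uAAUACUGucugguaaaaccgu
hsa-miR-200a-3p: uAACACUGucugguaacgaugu
hsa-miR-141-3p: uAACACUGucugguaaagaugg

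Every value below is a normalized log2 ratio of manipulated over control cells. Each comparison rested on 1 array, so there is neither a p-value nor a replicate error. The labels put the manipulated cells in Cy3 and the control cells in Cy5 on both arrays, with no dye swap. The spread set beside a value is the pooled SD between different probes of the same gene, 0.42 for depleted cells (566 genes with several probes) and 0.45 for transfected cells (471 genes). The threshold for a call was a log2 ratio of 1 in either direction, a 2-fold difference. DPP4 was 15.1-fold lower in the depleted cells and 45.7-fold higher in the transfected cells, in the direction of the labels. Values were present for 83.1% of the named genes in depleted cells and for 75.2% in transfected cells. The 7 factors with a probe had 9 of 14 possible values. TWIST2 had no named probe, PRRX1 had no value on either array, ZEB2 had none on the depletion array, and TWIST1 and SNAI1 had none on the transfection array. Why a probe was left without a value is not stated in the labels, and a gap is not evidence that a gene was silent. Because intensities were not analysed here, the ratios also say nothing of how strongly each factor was expressed.

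In CD26-depleted ACC-MESO1 cells, none of the 5 measured factors was 2-fold higher or lower. ZEB1 (0.68), SNAI2 (0.42) and SNAI1 (0.31) lay above 0, and FOXC2 (-0.18) and TWIST1 (-0.76) below it. Over all 10347 genes of this array, 3.31% were 2-fold higher or more and 1.56% were 2-fold lower or more, so a count of 0 among 5 is near that background. The median of the 5 was 0.31, beside 0.01 over all genes. In CD26-transfected MSTO-211H cells, ZEB2 was 2.23-fold lower (-1.16) and the only one of 4 measured factors past 2-fold. SNAI2 (0.85) and ZEB1 (0.30) were above 0 and FOXC2 (-0.37) below it. Over all 9359 genes of that array, 4.09% were 2-fold higher or more and 1.37% were 2-fold lower or more, and the median of the 4 factors was -0.03 beside 0.01 over all genes.

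**Figure D1:**
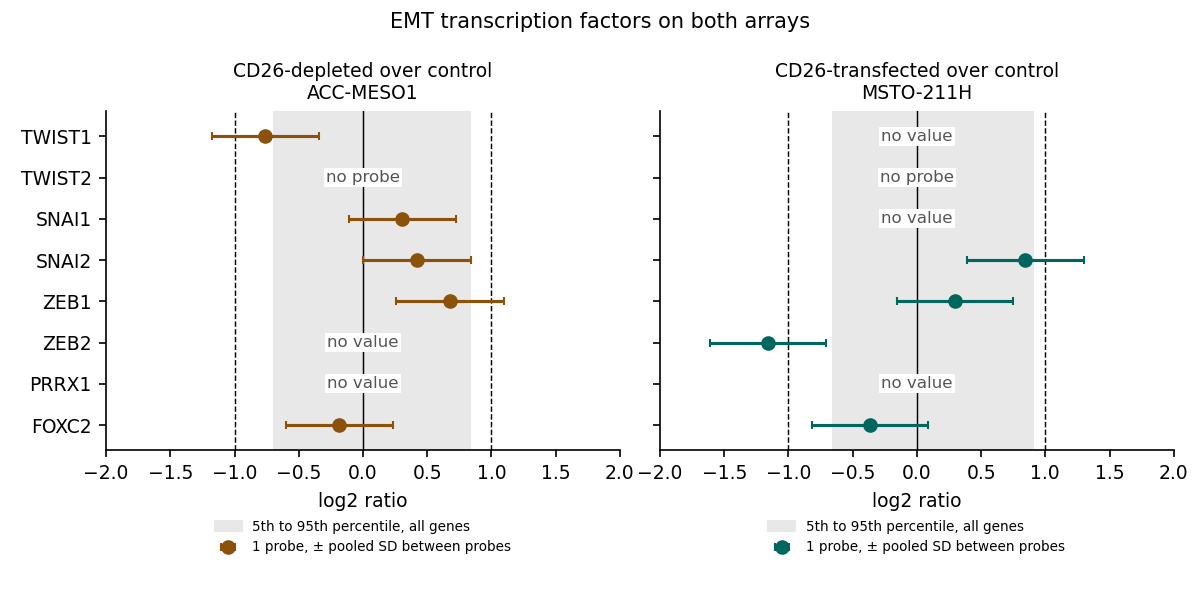
Log2 ratio of each EMT transcription factor (x axis) in CD26-depleted over control ACC-MESO1 cells (left) and in CD26-transfected over control MSTO-211H cells (right). Points are single probes with the pooled SD between a gene's probes (0.42 and 0.45) as bars, grey marks the 5th to 95th percentile of all genes and dashed lines mark 2-fold; TWIST1 and ZEB2 lie below the grey range, and the other measured factors lie within it.

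The ZEB pair gave the value farthest from 0. ZEB2, the zinc finger homeobox factor also known as SIP1 and listed on the platform under its older symbol ZFHX1B, had a log2 ratio of -1.16 in transfected cells, 2.56 times the SD between probes. It ranked 79 from the lowest of 9359 genes. ZEB1, listed as TCF8, had 0.68 in depleted cells and 0.30 in transfected cells. The first is 1.62 times and the second 0.66 times the probe SD. In depleted cells 12.8% of genes, and in transfected cells 43.7%, were at least as far from 0 as ZEB1. Centring on the median of the ribosomal protein genes moved every gene up by 0.35 in depleted and 0.25 in transfected cells. ZEB1 then reached 1.03 in depleted cells and ZEB2 was at -0.91 in transfected cells. That centring thus put ZEB1 past 2-fold and took ZEB2 short of it. With it, 853 of 10347 genes were at least 2-fold higher in depleted cells. It rested on the 32 of 77 ribosomal protein genes with a value. These ran from RPLP0 (-1.36) to RPS19 (0.33) in depleted cells and from RPLP0 (-1.46) to RPL34 (0.26) in transfected cells.

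ZEB2 belonged to the 403 genes with a value on the transfection array alone, and the SD over these genes was 0.78, beside 0.47 over the genes that both arrays measured. Their median was 0.53, 78.4% of them were above 0, and 28.5% were 2-fold higher or more and 3.23% were 2-fold lower or more. For the 8956 genes that both arrays measured, these shares were 2.99% and 1.28% in transfected cells. ZEB2 was on the sparse side of its class, with 10 of the 403 genes lower than it. In size without sign, 25.3% of the class was at least as far from 0.

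**Figure D2:**
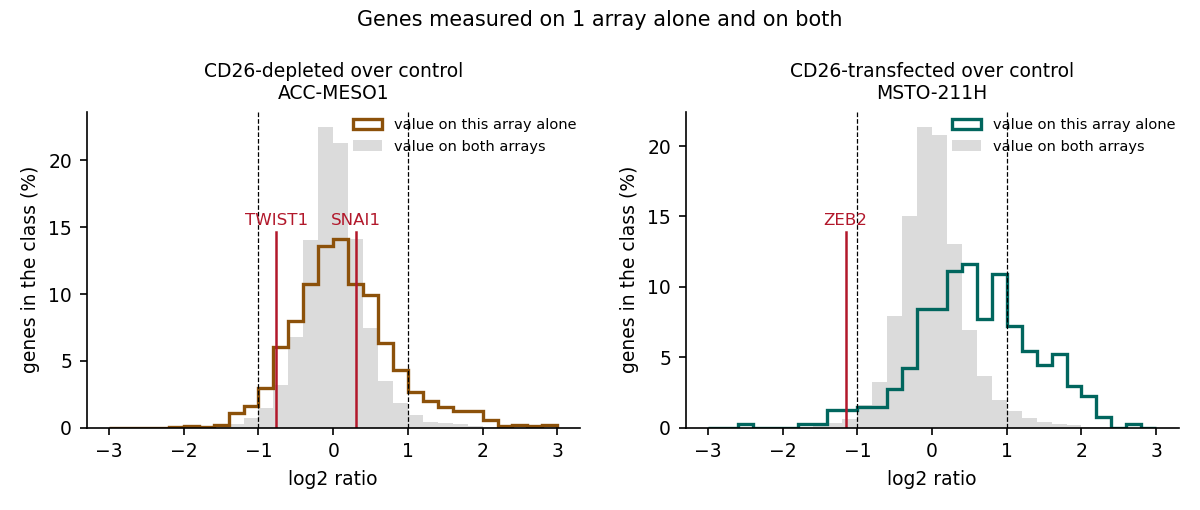
Distribution of log2 ratios (x axis, in bins of 0.2, with values past 3 in size placed in the end bins) as a percentage of the genes in each class (y axis), for genes with a value on the named array alone (coloured line) and on both arrays (grey). Red lines mark TWIST1 (-0.76) and SNAI1 (0.31) on the depletion array and ZEB2 (-1.16) on the transfection array; the transfection-only genes are centred near 0.53, and ZEB2 lies in their lower tail.

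The Snail pair was above 0 wherever it was measured. SNAI2 (Slug), the zinc finger repressor active in neural crest and mesoderm, had 0.42 in depleted cells and 0.85 in transfected cells, 1.01 and 1.87 times the probe SD of each array. In transfected cells 94.2% of genes were lower than SNAI2, and 8.26% were at least as far from 0. With the ribosomal protein centring it was at 1.10 there, past 2-fold. SNAI1 (Snail), a zinc finger repressor of E-cadherin, had 0.31 in depleted cells, 0.73 times the probe SD, and no value in transfected cells. SNAI3, the third Snail gene, had 0.18 in depleted cells and likewise no value in transfected cells.

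TWIST1, the basic helix-loop-helix factor of cranial mesoderm that cooperates with Snail proteins in EMT, had -0.76 in depleted cells (1.69-fold lower). That was 1.82 times the probe SD, and 3.71% of all genes were lower. It was among the 1391 genes with a value in depleted cells alone. Of these, 9.99% were 2-fold higher or more and 3.24% were 2-fold lower or more, and 99 were lower than TWIST1. For genes that both arrays measured, these shares were 2.27% and 1.3% in depleted cells. With the ribosomal protein centring it was at -0.41, within 1 probe SD of 0. FOXC2, a forkhead factor of lymphatic and mesenchymal development, had -0.18 in depleted and -0.37 in transfected cells. Both lay within 1 probe SD of 0, and the depleted value changed sign, to 0.17, with the ribosomal protein centring.

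SNAI2, ZEB1 and FOXC2 were measured on both arrays, and each had the same sign on both, except that FOXC2 was at 0.17 in depleted and -0.12 in transfected cells with the ribosomal protein centring. The design lowered CD26 in one line and raised it in another, and as deposited none of these 3 had the opposite signs that DPP4 had. Over all 8956 genes measured on both arrays, 53.1% had the same sign. The arrays shared their dye orientation, and a gene-specific dye effect would also give equal signs; its part in these values was not tested. The log2 ratio on the transfection array minus that on the depletion array was 0.42 for SNAI2, -0.38 for ZEB1 and -0.18 for FOXC2. Each ratio had its own control in a different line. The probe SD, 0.42 and 0.45 on the arrays, describes different probes on 1 array and is not the error of this difference. No factor that was measured on both arrays was past 2-fold on either, so no search for genes of like pattern was made. Ratios on 2 arrays place a gene only loosely, since 70 other genes lay within a distance of 0.2 of SNAI2 on the plane of both ratios, 174 of ZEB1 and 770 of FOXC2.

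**Figure D3:**
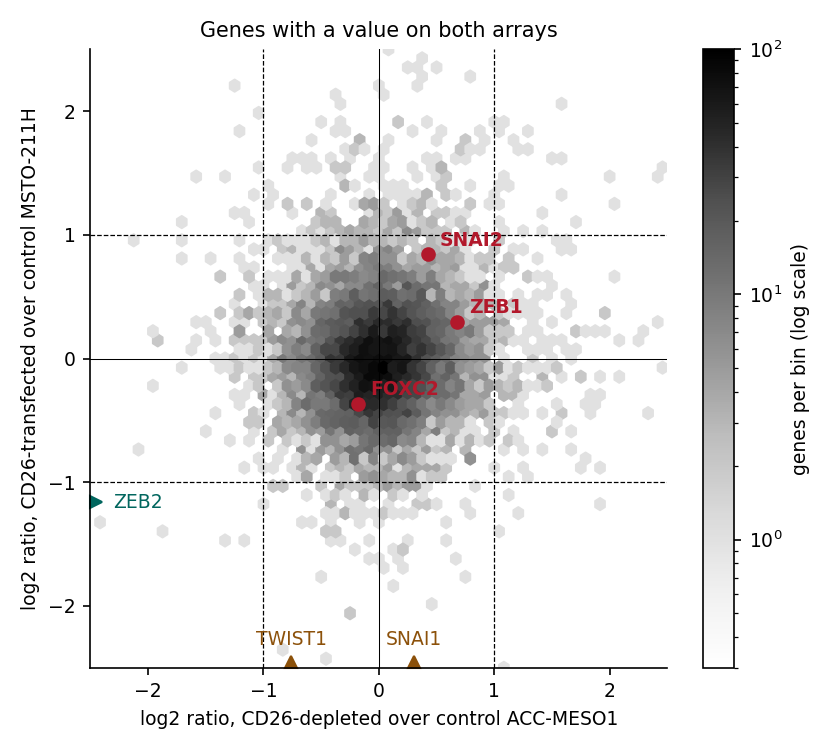
Log2 ratio in CD26-depleted over control ACC-MESO1 cells (x axis) against CD26-transfected over control MSTO-211H cells (y axis) for genes with a value on both arrays, as hexagons shaded by the number of genes on a log scale, with both axes limited to 2.5 in size. Red points are the factors measured on both arrays, and triangles on the axes mark those measured on 1 array; SNAI2 and ZEB1 sit in the upper right, FOXC2 sits in the lower left, and the dashed lines mark 2-fold.

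Each factor was set beside its neighbours on the chromosome. For each factor the nearest 10 measured genes on each side were taken by gene order in RefSeq. In transfected cells ZEB2 was lower than all 20 of its neighbours, whose median was 0.15 and whose lowest, GALNT13, was just short of 2-fold lower. SNAI2 was higher than all 20 of its neighbours in the same cells, with a median of 0.16 and a highest value of 0.64 (RNF170). In depleted cells ZEB1 was higher than all 20 of its neighbours (median -0.01, highest BAMBI at 0.57). TWIST1 was lower than 18 of 20 (median -0.01), with TSPAN13 (-0.79) and SNX13 (-0.77) below it. TWIST1 thus lay inside the range of its neighbours, as did SNAI1, FOXC2, SNAI2 in depleted cells and ZEB1 in transfected cells.

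**Figure D4:**
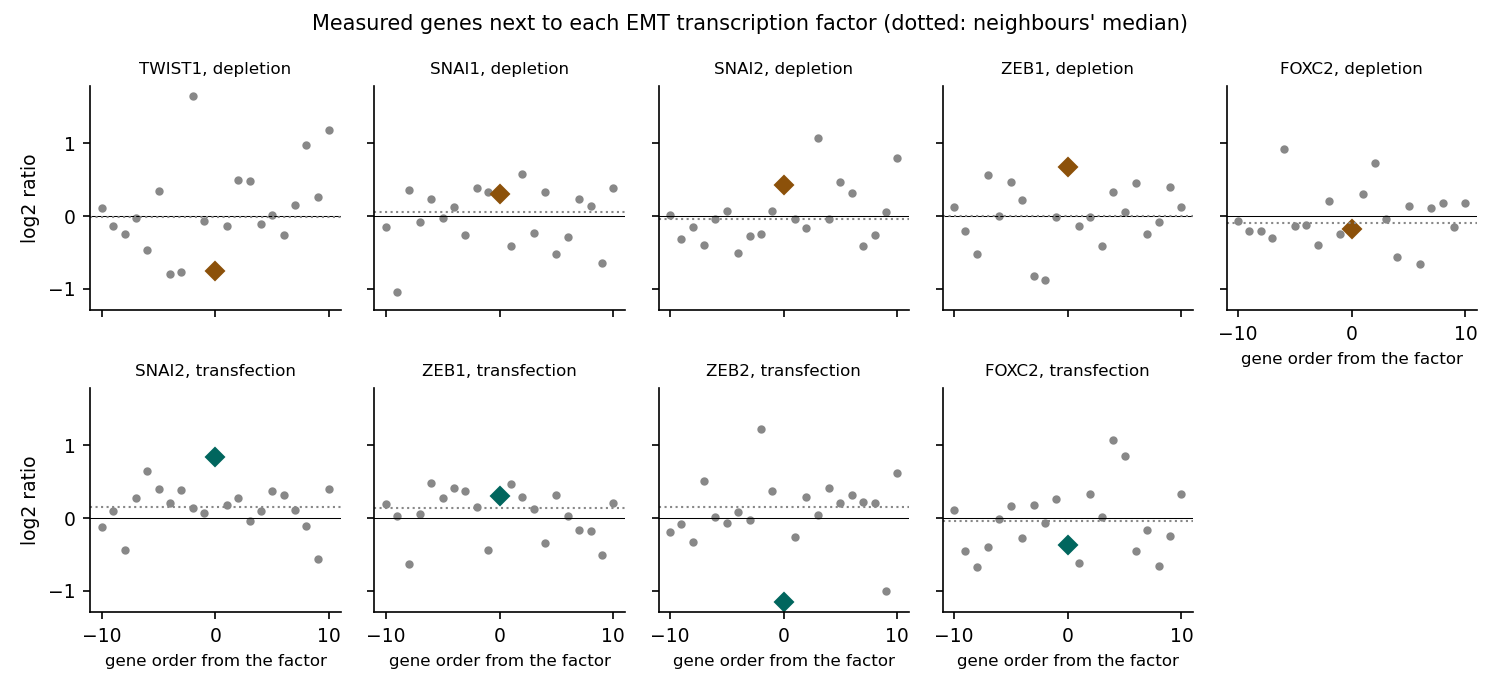
Log2 ratio (y axis) of each measured factor (diamond) and of the 10 nearest measured genes on each side (grey points) by gene order (x axis), with depletion of CD26 in the upper row and transfection in the lower. Dotted lines are the neighbours' medians; ZEB1 in depleted cells and SNAI2 in transfected cells lie above all 20 neighbours, and ZEB2 in transfected cells lies below all 20.

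E proteins pair with TWIST factors on DNA, and Id proteins, which lack a DNA-binding region, hold E proteins away from them. In CD26-depleted cells all Id genes were below 0, with ID4 at -1.07, ID3 at -1.01, ID2 at -0.71 and ID1 at -0.59. The E protein genes were within 1 probe SD of 0, at -0.19 for TCF4, -0.10 for TCF12 and 0.11 for TCF3. Of the 7 genes 2 were at least 2-fold lower, beside 1.56% of all genes on that array, and the list median was -0.59. With the ribosomal protein centring the median was -0.24, and ID4 (-0.71) and ID3 (-0.66) were no longer past 2-fold. In transfected cells ID2 was at 0.58, ID3 at 0.05 and ID1 at -0.21, ID4 had no value, and the median over 6 genes was 0.02 with none past 2-fold. Counts past 2-fold in the lists that follow have the same background over all genes. It was 3.31% higher and 1.56% lower in depleted cells, and 4.09% higher and 1.37% lower in transfected cells.

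Close paralogs of the factors had a median of -0.03 over 11 genes in depleted cells, from ALX4 (0.32) to SHOX2 (-0.58), with none past 2-fold. In transfected cells the median was -0.36 over 10 genes. The homeobox gene ALX4 (-1.06), a relative of PRRX1, and the forkhead gene FOXF2 (-1.05) were at least 2-fold lower there, and FERD3L, a relative of TWIST1, was highest at 0.42. Over all genes of that array 1.37% were 2-fold lower or more. With the ribosomal protein centring ALX4 (-0.81) and FOXF2 (-0.80) were short of 2-fold. FOXC1, the nearest relative of FOXC2, was at -0.30 in depleted and -0.87 in transfected cells. PRRX2, the paralog of PRRX1, was at -0.54 and 0.26.

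Other transcription factors linked to EMT had 2 of 15 measured members at least 2-fold higher in depleted cells, the skeletal factor RUNX2 (1.58) and SOX9 (1.05), a factor of cartilage and neural crest. None was 2-fold lower, beside 3.31% higher and 1.56% lower over all genes. The list median was 0.13, and PRRX2 was the lowest. In transfected cells ETS1 (1.35) was the only one of 11 past 2-fold, beside 4.09% higher and 1.37% lower over all genes. The list median was -0.01 there, and FOXC1 was the lowest. SOX9 was at -0.73 there, and ETS1 was at 0.60 in depleted cells. Epithelial transcription factors, which oppose EMT, had 8 of 10 members below 0 in depleted cells with a median of -0.18 (0.17 with the ribosomal protein centring), while 51.3% of all genes on that array were above 0. The grainyhead factors GRHL1 (-0.96) and GRHL2 (-0.71) were the lowest, none was past 2-fold, and ELF3 (0.30) was the highest. As deposited, every measured member but GRHL1 and GRHL2 lay within 1 probe SD of 0. In transfected cells OVOL2 (1.28), a zinc finger repressor of ZEB1 in other epithelia, was at least 2-fold higher, ELF3 (-0.88) was lowest, and the median over 8 genes was -0.15. OVOL2 had a value in transfected cells alone, as did FOXF2, PKP2 and CD3E, and in that class 28.5% of genes were 2-fold higher or more and 3.23% were 2-fold lower or more. RUNX2, ID4, AXIN2, MFAP5, GRHL1 and GRHL2 had a value in depleted cells alone, where these shares were 9.99% and 3.24%.

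Epithelial genes that EMT factors repress lay on both sides of 0 on each array. E-cadherin, CDH1, the best known target, was at -0.18 in depleted and 0.06 in transfected cells, both within 1 probe SD of 0. In depleted cells claudin-1, CLDN1 (2.32), was the only one of 20 measured genes past 2-fold, PATJ (-0.71) was the lowest, and the median was -0.11. In transfected cells the tight junction protein cingulin, CGN (2.10), and the desmosomal plakophilin PKP2 (1.10) were at least 2-fold higher and keratin 18, KRT18 (-1.16), was at least 2-fold lower, of 19 measured, with a median of 0.06. With the ribosomal protein centring the median in depleted cells was 0.24, and KRT18 in transfected cells was at -0.91. CLDN1 was at -0.43 in transfected cells, and CGN at 0.04 in depleted cells. The 2 probes of ITGB4 lay apart in transfected cells, at -1.03 and 0.26, with a mean of -0.38. Of the 8 genes with CACCTG or CAGGTG before a start, 7 had a value in depleted cells, 3 above 0 and 4 below, from OCLN (0.67) to PATJ (-0.71). In transfected cells 6 had a value, 4 above 0 and 2 below, from OCLN (0.37) to JUP (-0.48). DSP was at 0.23 in depleted and 0.22 in transfected cells.

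Mesenchymal genes had 4 of 16 measured members at least 2-fold higher in depleted cells and none lower, beside 3.31% higher and 1.56% lower over all genes. They were the actin-binding protein transgelin, TAGLN (1.89), the collagen cross-linker LOX (1.82), integrin ITGA5 (1.29) and S100A4 (1.15). The median was 0.28, and fibronectin, FN1, was the lowest at -0.80, with its 2 measured probes at -0.75 and -0.85. The 2 probes of CALD1 lay apart in depleted cells, at -1.13 and 0.13, so 1 of them was past 2-fold lower. Their mean was -0.50. In transfected cells the collagen COL3A1 (1.78) and the gelatinase MMP2 (1.77) were at least 2-fold higher, and MMP9 (-0.98) was the lowest of 16 with a median of 0.25. Of the 4 genes past 2-fold in depleted cells, TAGLN was at 0.22, ITGA5 at -0.07, S100A4 at -0.23 and LOX at -0.33 in transfected cells. N-cadherin, CDH2, was at 0.53 in depleted and 0.59 in transfected cells. Vimentin, VIM, was at -0.12 and 0.32.

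**Figure D5:**
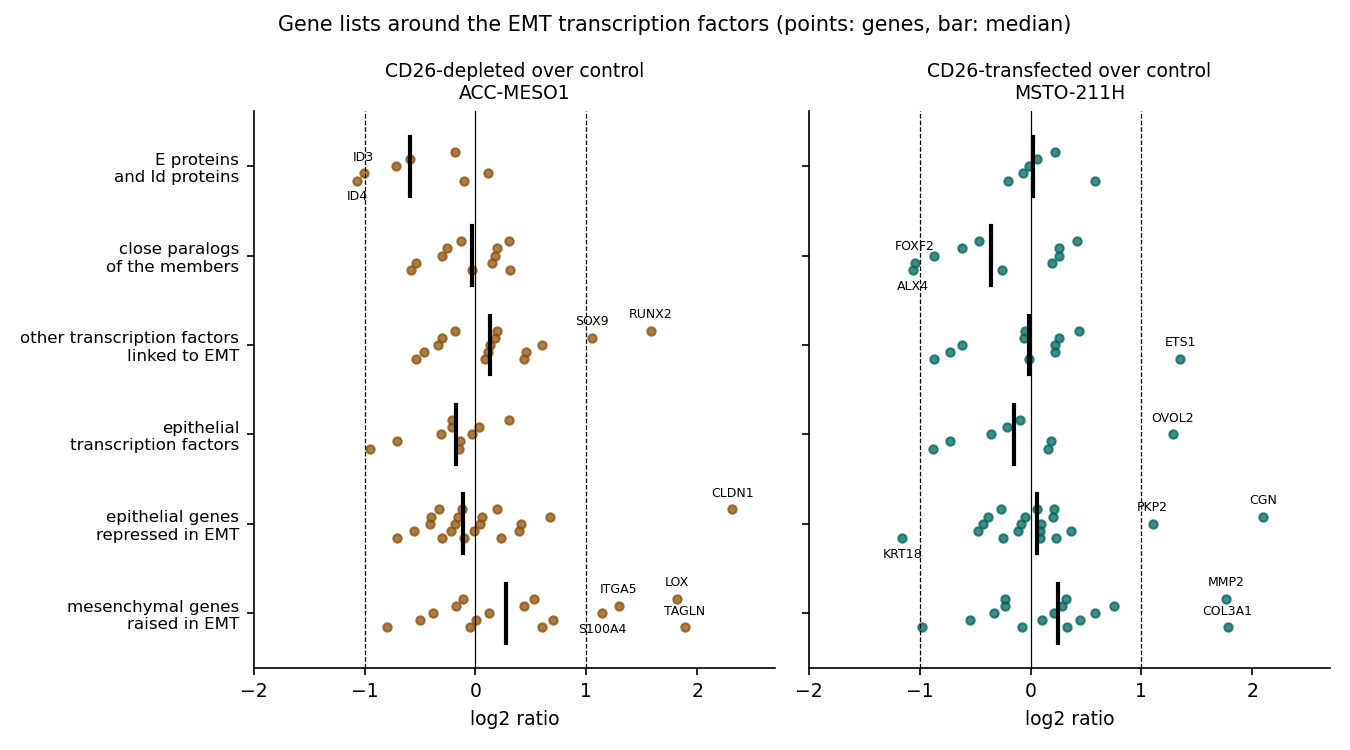
Log2 ratios (x axis) of the measured genes in 6 lists around the EMT transcription factors (y axis), in CD26-depleted over control ACC-MESO1 cells (left) and CD26-transfected over control MSTO-211H cells (right). Points are genes, black bars are list medians, dashed lines mark 2-fold and genes past it are named; the median of the E and Id protein list is -0.59 in depleted cells and 0.02 in transfected cells.

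Reported targets of TWIST1 or PRRX1 had 5 of 6 measured genes below 0 in depleted cells, all but CDH2, with a median of -0.14 (0.21 with the ribosomal protein centring) and none past 2-fold, while 51.3% of all genes were above 0. These 5 lay within 1 probe SD of 0. The list is mixed in direction, since CDH1 (-0.18), a gene that EMT factors repress, was among the 5. A count of signs thus does not show whether targets followed a factor. Tenascin, TNC, was the lowest at -0.25, and periostin, POSTN, was at -0.23. In transfected cells POSTN was at 3.57, the only one of 4 past 2-fold, and TNC was at -0.23, with a median of 0.32. TWIST1 and PRRX1 themselves had no value there, so no target could be set beside its factor on that array.

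Corepressors and chromatin partners of the factors had a median of 0.07 over 23 genes in depleted cells and 0.13 over 23 in transfected cells. RCOR1, a corepressor partner of the histone demethylase KDM1A, was the lowest in depleted cells (-0.65) and the highest in transfected cells (1.27), where it was the only one past 2-fold. The lysyl oxidase family member LOXL2 was the highest in depleted cells (0.89), and the histone deacetylase HDAC1 the lowest in transfected cells (-0.52). Kinases, ubiquitin ligases, deubiquitinases and other regulators that act on the factor proteins had medians of 0.02 and 0.08 over 13 genes on each array, with none past 2-fold. They ran from MDM2 (0.78) to FBXL14 (-0.29) in depleted cells and from the phosphatase gene CTDSP1 (0.45) to the kinase gene GSK3B (-0.43) in transfected cells.

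Signals upstream of the factors had a median of -0.01 over 20 genes in depleted cells, where AXIN2 (-1.38), a feedback inhibitor and target of Wnt signalling, was at least 2-fold lower and the receptor gene NOTCH2 (0.95) was the highest. The NOTCH2 probes were at 1.26 and 0.64 there. In transfected cells the median was -0.06 over 16 genes, with the NF-kB subunit RELA (1.42) at least 2-fold higher and the TGF-beta receptor TGFBR2 (-0.84) the lowest. TGFB1 was at -0.13 in depleted and -0.03 in transfected cells. Beta-catenin, CTNNB1, was at -0.79 and 0.90.

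Markers of the labelled cell type and of other cells were examined as ratios, which cannot show presence or absence. Mesothelial markers had a median of 0.07 over 12 genes in depleted cells, from ITLN1 (1.38, past 2-fold) to WT1 (-0.37). In transfected cells the median was 0.02 over 11 genes, with MSLN (-1.31) and KRT18 (-1.16) at least 2-fold lower and UPK3B (0.66) the highest. Fibroblast markers had medians of -0.03 over 8 genes in depleted and -0.49 over 6 in transfected cells. They ran from MFAP5 (1.96, past 2-fold) to LUM (-0.89) in the first and from THY1 (0.75) to COL14A1 (-0.77) in the second. Endothelial markers had -0.07 over 6 genes and -0.42 over 5, and ran from CLDN5 (0.29) to VWF (-0.22) and from CLDN5 (0.57) to ERG (-0.51). Myeloid markers had 0.40 over 4 genes and -0.30 over 3, from CSF1R (0.93) to AIF1 (0.13) and from CSF1R (0.46) to CD68 (-0.89). Among lymphocyte markers, CD3D was at -0.07 in depleted cells and -0.76 in transfected cells, where CD3E (1.88) was the only other gene measured and the list median was 0.56. The samples were cultured lines and not tissue, so these ratios are not read as shares of different cell types. A change in some cells of a line and a change in all of them cannot be told apart in bulk RNA.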

How the data were processed

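Total RNA (TRIZOL) was turned into amino allyl aRNA and dye-coupled, per the labels' protocols. The authors deposited normalized log2 ratios of manipulated over control cells, per the labels' sample descriptions; background correction, normalization, scanner and probe filter were not given in the sources used here. Each array had a median of 0 over its probes and was used as deposited. Of 24267 probes, 13395 had 1 gene symbol, 0 had several and 10872 had none in the platform annotation. Symbols were updated through RefSeq (GRCh38.p14): 10076 were current, 2285 were changed through a unique synonym and 113 with several candidates were kept. Probes of a gene were averaged in Python 3.11.15 with pandas 2.3.3. No statistical test was possible with 1 array per comparison. Steps were tested on simulated data with less spread between probes than these arrays and with changes well past the threshold. That checks the code and does not bear on values near 2-fold.

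The members and gene lists were chosen with earlier results of these data known. Named genes are the 8 factors, DPP4, POSTN, CDH1, CDH2, VIM and FN1, list members past 2-fold, and the highest and lowest of each list; others are named after their values were seen. Alternatives were other centrings, a common spread, other probe rules, symbols as listed, thresholds of 0.5 and 1.5, and genes measured on both arrays.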

Additional observations from a re-analysis of the deposited data

How the results depend on the processing

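No paired analysis was possible because each comparison had 1 array. Under the 7 alternatives that gave a value for the factors, no factor moved by more than 0.35, and 1 of 9 values changed sign (FOXC2 in depleted cells). Each factor had 1 probe, so the other probe rules could not move a factor. Symbols as listed could only repeat a factor's value or drop it. Those alternatives thus say nothing of how stable the factor values were. The remaining ones moved genes by a constant for the array or chromosome, or scaled them, and scaling cannot change a sign. The largest move, 0.35, is the shift of the ribosomal protein centring itself, so it does not measure the error of a factor value. Centred on ribosomal protein genes, 1 factor was at least 2-fold higher in depleted cells (ZEB1) and 1 in transfected cells (SNAI2), and 0 were lower; over all genes, 853 were higher and 42 lower in depleted cells, and 685 and 53 in transfected cells. With symbols as listed, ZEB1 and ZEB2 could not be found under those names and 0 factors were lower in transfected cells. At a threshold of 0.5, 1 factor was higher and 1 lower in depleted cells (of all genes, 1323 and 1014). In transfected cells 1 factor was higher and 1 lower at that threshold (of all genes, 1224 and 880). At 1.5, 0 factors were lower in transfected cells; over all genes, 125 were higher and 22 lower in depleted cells, and 141 and 22 in transfected cells. With the genes that both arrays measured, 203 were higher by 2-fold or more in depleted cells. Of 30 list medians, 15 changed sign under at least 1 alternative. That count includes medians near 0, and with the ribosomal protein centring 9 listed genes in depleted cells passed 2-fold that had not as deposited and 2 no longer did (ID3, ID4), against 4 and 4 in transfected cells (ALX4, FOXF2, KRT18 and ZEB2 no longer did), factors included. Single probes, with no signal over background used here, limit every value.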
